A study of Homo sapiens with 5 samples.

Results

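Peaks of trimethylated histone H3 lysine 9 (H3K9me3) that lay in LINC genes were examined in HEK293T cells, a line derived from human embryonic kidney. LINC is the symbol given to long intergenic non-coding RNA genes. A peak was taken when its midpoint fell in the body of a RefSeq gene on chromosomes 1 to 22 whose symbol starts with LINC, and in no protein-coding gene body. This gave 738 peaks of the 48568 on these chromosomes in 3 deposited peak lists. The EV list held 384 of 23245, the KD list 153 of 12081, and a list with no genotype in its name 201 of 13242. H3K9me3 chromatin immunoprecipitation gave 1 library each for WT, EV and KD, and inputs were made for WT and EV, all from this line. EV was taken to mean an empty vector, and KD knockdown of KCNQ1OT1, a long non-coding RNA whose name the design extends by an unexplained suffix K. Neither the knockdown method nor whether the cells were clones or pools is stated. Peaks near the limits of the rule were few. A midpoint lay in both a LINC and a protein-coding body for 8 EV, 5 KD and 5 other peaks. Another 28, 14 and 4 peaks reached a LINC body with a midpoint outside it and in no protein-coding body. All of these were left out. The list without a genotype was assigned to no group, so its values stand beside the others without a comparison to WT.

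H3K9me3 is laid down by methyltransferases such as SETDB1 and SUV39H1 and is bound by HP1 proteins, which compact chromatin and keep transcription low. It is best known from centromeric repeats, silenced transposable elements and zinc finger gene clusters. LINC genes are transcribed from the stretches between protein-coding genes, most have no described function, and many are active in few tissues. A mark in such a gene may therefore lie on the gene's own start or on other sequence that its long body happens to span.

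The RefSeq table of GRCh38.p14 listed 2266 LINC genes on chromosomes 1 to 22 that are not protein-coding, with a median length of 13.6 kb. Their bodies outside protein-coding genes spanned 83.9 Mb, or 2.92% of the chromosomes. Few LINC peaks lay at the gene starts that could be examined. The start window of a gene is 250 bases before to 50 after its start, and 1555 LINC genes had one in the RefSeq promoter table. Of the LINC peaks in a gene that has such a window, 15 of 256 EV peaks touched it (5.86%, exact Clopper-Pearson 95% interval 3.32 to 9.48), as did 5 of 99 KD peaks (5.05%, 1.66 to 11.4) and 3 of 133 in the list without a genotype (2.26%, 0.468 to 6.45). The other LINC peaks lay in genes for which no start was used here. A peak centred before a gene's start lies outside that body and was not counted for it, so the shares miss such peaks. LINC01388 and LINC01666 had their whole windows under EV and KD peaks of that kind. Neither the same share over other genes nor the share expected from window and gene length was computed. Few is meant here as a count only. These intervals, and all others given here, cover counting error over peaks only.

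The 23 windows under a LINC peak of any list were rich in CG dinucleotides, with a median of 22 per window, against 4 over the 1555 LINC windows and 14 over all 26246 windows of these chromosomes. At least 10 CG were present in 78.3% of the 23 windows, in 23.7% of LINC windows and in 55.8% of all windows. The motif TATAAA, searched on both strands, was in 1 of the 23 windows and in 12.04% of all windows. They ran from 0 CG in LINC02359 to 47 in LINC01388. Printed here, as starts of named genes under a LINC peak, are 5 of them, 5′ to 3′ on the gene's strand from RefSeq (GRCh38.p14), with CG in capitals. The first 4 came from named genes with a window under an EV or KD LINC peak. They were taken by the largest smallest covered share over the lists, with ties in alphabetical order. LINC02146, a named gene left out by that order, had its whole window under an EV peak. That window held 2 CG and the motif TATAAA. LINC01785 (chr19:22623922-22624221, minus strand) had 185 of its 300 bases under an EV peak. LINC03025 (chr9:41108881-41109180, minus) had 188 bases under an EV and 136 under a KD peak. LINC01124 (chr2:170714518-170714817, minus) had 202 bases under a KD peak and lay whole under an EV peak centred in a protein-coding gene. LINC01143 (chr2:70887621-70887920, plus) also lay whole under an EV peak. LINC02992 (chr2:113979935-113980234, minus), with 126 bases under a KD peak, was added after its values were seen, because it carried the strongest KD peak that had no EV partner.
LINC01785: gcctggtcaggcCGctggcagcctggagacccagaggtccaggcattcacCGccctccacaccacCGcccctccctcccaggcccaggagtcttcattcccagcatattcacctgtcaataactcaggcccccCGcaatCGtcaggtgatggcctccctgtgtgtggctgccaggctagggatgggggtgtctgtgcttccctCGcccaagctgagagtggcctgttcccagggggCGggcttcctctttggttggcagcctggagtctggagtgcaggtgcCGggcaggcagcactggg
LINC03025: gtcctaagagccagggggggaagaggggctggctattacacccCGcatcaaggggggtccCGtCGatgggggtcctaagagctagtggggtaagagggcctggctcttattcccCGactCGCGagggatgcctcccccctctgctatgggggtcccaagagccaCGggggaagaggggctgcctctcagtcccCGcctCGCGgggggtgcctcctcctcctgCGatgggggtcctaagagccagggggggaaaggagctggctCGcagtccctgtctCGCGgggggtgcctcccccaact
LINC01124: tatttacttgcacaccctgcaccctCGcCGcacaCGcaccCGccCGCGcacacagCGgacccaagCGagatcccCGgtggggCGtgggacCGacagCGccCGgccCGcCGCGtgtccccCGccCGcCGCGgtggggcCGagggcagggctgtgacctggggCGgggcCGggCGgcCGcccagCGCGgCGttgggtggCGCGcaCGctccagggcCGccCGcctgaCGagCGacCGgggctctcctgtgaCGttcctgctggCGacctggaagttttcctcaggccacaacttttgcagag
LINC01143: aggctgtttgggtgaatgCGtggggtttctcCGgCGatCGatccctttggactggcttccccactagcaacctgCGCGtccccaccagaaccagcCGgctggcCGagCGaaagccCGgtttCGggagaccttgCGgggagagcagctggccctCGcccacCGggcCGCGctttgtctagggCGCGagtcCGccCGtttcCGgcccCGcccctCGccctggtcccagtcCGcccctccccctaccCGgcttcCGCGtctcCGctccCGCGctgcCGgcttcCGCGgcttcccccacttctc
LINC02992: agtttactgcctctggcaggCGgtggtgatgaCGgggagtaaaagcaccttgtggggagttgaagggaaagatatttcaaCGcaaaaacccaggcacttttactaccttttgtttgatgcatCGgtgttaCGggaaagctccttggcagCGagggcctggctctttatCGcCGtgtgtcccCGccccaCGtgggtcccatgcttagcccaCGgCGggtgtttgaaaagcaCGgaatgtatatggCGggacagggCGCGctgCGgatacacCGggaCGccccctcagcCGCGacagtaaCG

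LINC01124 held 38 CG and LINC01143 held 33, counts that 9.86% and 17.2% of all windows reached. LINC02992 held 22 CG, LINC03025 held 14 and LINC01785 held 8. The LINC03025 window repeats itself: the 10-base word ATGGGGGTCC, the first in alphabetical order of those it holds most often, occurs 3 times on the printed strand and not on the other. Only 19 of 26246 windows (0.0724%) hold that word at all on either strand. The printed windows are starts of genes. The sequence of the LINC peaks outside start windows was not used here.

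Fewer LINC peaks were listed in KD than in EV, and they covered less sequence. EV peaks covered 430.4 kb and KD peaks 142 kb, which gives a KD/EV ratio of 0.398 for number (interval 0.328 to 0.482) and 0.330 for covered length. Over all peaks of chromosomes 1 to 22 these ratios were 0.520 and 0.408, over peaks in protein-coding genes 0.355 and 0.291, and over peaks in other long non-coding RNA genes 0.345 and 0.291. In the list without a genotype LINC peaks covered 182 kb. LINC peaks made up 1.65% of the EV list, 1.27% of the KD list and 1.52% of the list without a genotype, all below the 2.92% of length that LINC bodies take. The density of LINC peaks was 4.57 per Mb of LINC body in EV, 1.82 in KD and 2.39 in the list without a genotype, where all peaks together had 8.09, 4.20 and 4.61 per Mb. A low share was not particular to LINC genes. Peaks in protein-coding genes made up 31.7%, 21.7% and 15.7% of the lists, while protein-coding bodies spanned 1210 of 2874 Mb. Peaks in no gene made up 57.9%, 70.7% and 75.5%.

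The ratio of number depended on how many peaks of each list were kept. With each list limited to its 12081 strongest peaks, EV held 161 LINC peaks and KD 153, a ratio of 0.950, and the ratio of covered length was 0.647. That limit makes the lists equal in total number, so this ratio of number only sets LINC peaks against the whole list. With −log10 q of at least 2 the ratio of number was 0.416, and with fold enrichment of at least 3 it was 0.585. The read depth of the libraries is unknown, and 1 library per group gives no replicate check, so no difference between conditions was tested.

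**Figure D1:**
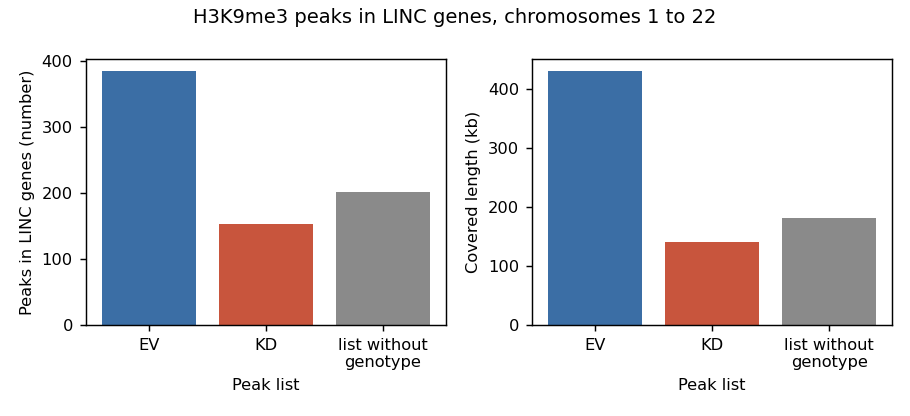
Number of H3K9me3 peaks in LINC genes (left) and the length they cover in kb (right), with 1 bar per peak list and no replicates. The EV bar is the highest in both panels, with 384 peaks over 430.4 kb, against 153 over 142 kb in KD and 201 over 182 kb in the list without a genotype.

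Most LINC peaks were narrow and weak, and most peaks of each whole list were weak too. Median width was 878 bp in EV, 670 bp in KD and 735 bp in the list without a genotype, where all peaks of those lists had 1117, 1023 and 1160 bp. Peaks in protein-coding genes had 925, 724 and 775.5 bp, and those in other long non-coding RNA genes 895, 662 and 756 bp. The narrow width was therefore not particular to LINC genes. The median −log10 p of LINC peaks, as the authors' caller gave it, was 4.29, 4.74 and 3.75. A −log10 p under 5 was found for 62.8% of EV, 58.8% of KD and 91.04% of the LINC peaks without a genotype, against 54.8%, 50.9% and 67.5% of all peaks. In protein-coding genes the shares were 61.1%, 52.5% and 87.7%, and in other long non-coding RNA genes 63.4%, 52.0% and 86.5%. A −log10 p of 20 or more was reached by 21 EV LINC peaks (5.47%, 3.42 to 8.24) and 11 in KD (7.19%, 3.64 to 12.5), where the shares of all peaks were 5.44% and 3.87%. In the list without a genotype 0 of 201 LINC peaks (interval 0 to 1.82%) and 0.997% of all peaks reached it. Median fold enrichment, the authors' ratio over background, was 3.13, 3.75 and 3.30, each on its own list's scale.

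The strongest EV peak lay in LINC03109 on chromosome 3. It spanned 153345361 to 153347195 (1835 bp). Its fold enrichment was 11.5 and its −log10 p 169.6. KD had a peak there of 1489 bp with a fold of 10.9, and the list without a genotype had 1507 bp with 5.10, so all 3 lists marked the same place. LINC01876 on chromosome 2 carried the highest EV fold, 13.9, in a peak of 1811 bp at 156142426 to 156144236. Its KD peak had a fold of 9.13, and its peak in the list without a genotype one of 3.12 over 1092 bp. Each of these folds is scaled within its own list, so the values describe the place and no change is read from them.

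Further genes had a sharp and strong EV peak with a KD peak at the same place, but none there in the list without a genotype. In LINC01821 on chromosome 2, EV marked 194402869 to 194404404 with a fold of 10.7, and KD the same place with 7.68. LINC01035 on chromosome 1 had 9.96 in EV at 189024332 to 189025978 and 7.41 in KD. LINC00907 on chromosome 18 had 8.29 in EV at 42628330 to 42629696 and 7.17 in KD, and its 2 peaks without a genotype lay elsewhere in the gene. LINC02343 on chromosome 13 had 8.71 in EV at 34366722 to 34367964 and 5.601 in KD. These peaks were between 1021 and 1647 bp wide in both lists, within gene bodies of 75363 to 504759 bp.

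The 21 strong EV peaks lay in 20 genes, and 18 of them were 900 to 2000 bp wide. All 21 were overlapped by KD, and 9 by the list without a genotype. None touched a start window, although some of these genes, such as LINC01876 and LINC01035, have none in the table. Their distance to the nearest protein-coding gene ran from 33.4 to 1520 kb, with a median of 263.5 kb. Wider strong peaks were found in LINC02512 on chromosome 4, with 5312 bp and a −log10 p of 97.9 in EV, and in LINC02762 on chromosome 11, with 3908 bp and 85.4. In LINC02512 the single EV peak faced 2 KD peaks of 1300 and 2641 bp, while LINC02762 had 1 KD peak of 3474 bp. In the list without a genotype LINC02762 was covered almost as widely, by 3835 bp, and LINC02512 by 1059 bp.

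**Figure D2:**
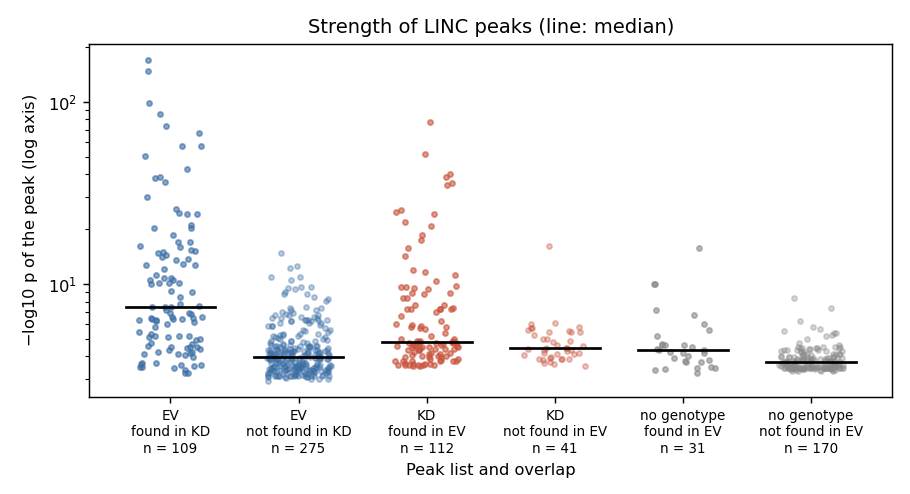
The −log10 p of each LINC peak (log axis), by list and by whether another list overlapped it (KD for EV peaks, EV for the others). Points are peaks and lines are medians, which were 7.48 for the 109 EV peaks found in KD and 3.96 for the 275 not found.

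KD overlapped 109 of the 384 EV LINC peaks by at least 1 bp (28.4%, interval 23.9 to 33.2), where the share over all 23245 EV peaks was 37.9%. In protein-coding genes it was 27.5% (26.5 to 28.5) and in other long non-coding RNA genes 26.7% (24.5 to 29.1), both inside the LINC interval. Of the 153 KD LINC peaks, EV overlapped 112 (73.2%, 65.5 to 80.03), against 87.7% of all KD peaks. In protein-coding genes EV overlapped 78.3% of KD peaks and in other long non-coding RNA genes 79.2%, both inside the LINC interval. Peaks that EV shared with KD were stronger and wider than the rest of the EV list. Medians were 7.48 for −log10 p and 1047 bp for width, where the 275 others had 3.96 and 802 bp. At the 109 shared places, 64.5% of the EV bases lay under KD peaks, against 55.6% over all EV peaks found in KD. With equal numbers of strongest peaks, the share of EV LINC peaks found in KD was 52.2%, and that of KD found in EV 57.5%. The shares over all peaks were not computed under that limit.

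Whether an EV peak in a LINC gene had a KD partner went with its strength. The share was 5.95% at a −log10 p under 3.5, 18.4% between 4 and 5, 36.9% between 5 and 7, and 80.6% between 10 and 20. At 20 and over it was 100% of 21 peaks (interval 83.9 to 100). Peaks in protein-coding genes had 3.92%, 17.5%, 34.6%, 81.8% and 98.6% in the same bins, values inside the LINC intervals. Between 7 and 10, KD overlapped 10 of 26 LINC peaks (38.5%, 20.2 to 59.4), 52.2% of peaks in protein-coding genes and 70.004% of all peaks, the only bin in which the share over all peaks lay outside the LINC interval.

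**Figure D3:**
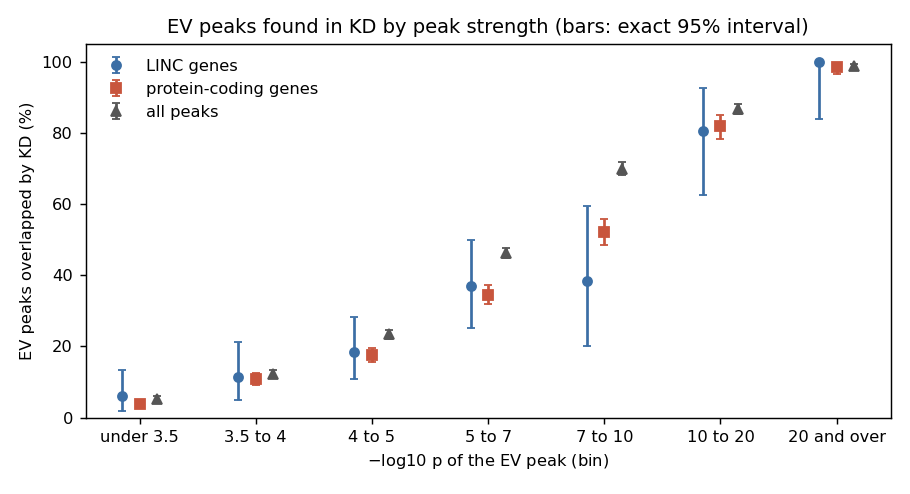
Share of EV peaks overlapped by a KD peak (y axis, percent) by bin of the EV peak's −log10 p (x axis), for LINC genes, protein-coding genes and all peaks. Error bars are exact 95% intervals over peaks, and the LINC share runs from 5.95% in the weakest bin to 100% in the strongest.

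The list without a genotype shared few LINC peaks with either other list. It overlapped 30 of 384 EV peaks (7.81%, 5.33 to 11.0) and 23 of 153 KD peaks (15.03%, 9.77 to 21.7), where the shares over all peaks were 25.4% and 46.3%. Read the other way, EV overlapped 31 of its 201 LINC peaks (15.4%) and KD 24 (11.9%), against 52.9% and 37.4% of all its peaks. For EV and KD peaks the low share was not particular to LINC genes. The list overlapped 6.73% of EV and 12.5% of KD peaks in protein-coding genes, and 9.45% and 17.5% in other long non-coding RNA genes. Of its own peaks EV overlapped 24.9% in protein-coding and 23.4% in other long non-coding RNA genes, and KD 15.6% and 13.8%. In neither other list were found 166 of the 201, with a median −log10 p of 3.72. The strongest of these, in LINC02712 on chromosome 11, had 8.33 and a width of 347 bp. Of the 21 strong EV LINC peaks it overlapped 9 (42.9%, 21.8 to 65.98), and of all EV peaks that strong 57.9%. With −log10 q of at least 2 in all lists, only 34 LINC peaks of that list were left, and EV overlapped 35.3% of them. The share over all its peaks was not computed at that setting.

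LINC peaks present at the same place in all 3 lists numbered 18 by EV, 20 by KD and 20 by the list without a genotype, since a wide peak in 1 list can meet several in another. Of the named genes, they included LINC03109, LINC01876, LINC01743, LINC02538, LINC03025 and LINC01666. LINC01743 on chromosome 1 was the clearest, with peaks of 1703, 1515 and 1437 bp that covered 20.6% of the gene in EV, 18.4% in KD and 17.4% in the list without a genotype. LINC01322 on chromosome 3, near SLITRK3, was marked at 165316302 to 165317252 in EV with a −log10 p of 73.8, and in KD and the list without a genotype with 22.003 and 10.1.

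By gene, EV had a LINC peak in 293 of 2266 LINC genes, KD in 133 and the list without a genotype in 147. Any peak base, LINC peak or not, was present in 14.3%, 6.58% and 6.71% of LINC genes and in 13.2%, 6.11% and 4.59% of all RefSeq genes. Most held a single peak: 224, 113 and 117 genes. Genes with a peak were long, with medians of 66.4, 71.2 and 82.7 kb against 11.6, 12.5 and 12.2 kb for genes without. EV and KD shared 108 genes, which is 36.9% of the EV genes and 81.2% of the KD genes. Counting any peak base, 37.7% of the LINC genes marked in EV were marked in KD and 81.9% the other way, close to the 38.5% and 83.5% over all RefSeq genes. All 3 lists had a peak in 41 genes, often at different places within the gene. LINC02987 on chromosome 19 shows this: its 4 EV, 3 KD and 8 peaks without a genotype covered 2.77%, 0.573% and 2.96% of the gene. All 3 KD peaks overlapped EV, but only 1 of the 8 peaks without a genotype did.

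The most EV peaks in a gene were the 10 in LINC01317 on chromosome 2, a gene of 590861 bp. KD had 4, each overlapping an EV peak, and the list without a genotype none. The strongest of the 10, at 33732281 to 33733389, had a fold of 6.34 in EV and 4.21 in KD. LINC03000 on chromosome 5 had 4 EV and 3 KD peaks, and all 3 KD peaks were shared. At 164927811 to 164929490 its −log10 p was 50.4 in EV and 24.95 in KD, and at 165039257 to 165040376 its fold was 6.57 and 5.96. Its 2 peaks without a genotype lay apart from these. LINC00508 on chromosome 12 had 4 EV peaks with −log10 p between 3.08 and 5.02, and no peak in the other lists. Of these 4, 2 also lay in LINC00507, which overlaps LINC00508.

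Covered share, the percentage of a gene body under any peak, was higher in EV for 297 LINC genes (13.1%) and higher in KD for 54 (2.38%), and 1915 had no peak base in either list. Over all 56756 RefSeq genes of these chromosomes, 12.2% were higher in EV and 1.84% in KD. At least 10% of the body was covered in 50 LINC genes in EV, 18 in KD and 9 in the list without a genotype, or 2.21%, 0.794% and 0.397% of LINC genes. The shares over all genes were 2.63%, 1.23% and 0.973%. Of the 50 EV genes, 27 had no KD peak at all (54.0%, 39.3 to 68.2), and of the 18 KD genes 4 had no EV peak (22.2%, 6.41 to 47.6). Over all RefSeq genes at 10% the shares were 50% (748 of 1495) and 21.9%, both inside these intervals.

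The named genes with the largest excess in EV were LINC01143, LINC00898, LINC01310, LINC02146 and LINC00537. LINC01143 on chromosome 2 (70887871 to 70889984), 11.6 kb from the eye homeobox gene VAX2, was covered to 66.1% by a peak of 1687 bp over its start, and had no peak in KD or in the list without a genotype. That peak was weak, with a −log10 p of 4.07, and was not among the strongest 12081 of EV. LINC00898 on chromosome 22 (47621043 to 47631569) had 63.8% in EV, mostly from a peak of 6361 bp, and 2.91% in KD from a peak of 306 bp inside it. LINC02146 on chromosome 5 (20612625 to 20615535) had 52.5% in EV and 0% in KD. LINC02146 lies inside the longer LINC02241. The EV peak, of 3024 bp and with a fold of 5.52, ran past the start of LINC02146, and a KD peak of 914 bp overlapped it there, within LINC02241 alone. LINC00537 on chromosome 9 (63812941 to 63819029) had 56.0% in EV and 9.77% in KD, and with fold enrichment of at least 3 the difference was 3.97 percentage points.

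LINC01310 on chromosome 22 (48866770 to 48898386) had more bases under EV LINC peaks than any other LINC gene. It lies 130.6 kb from TAFA5, a gene for a secreted brain protein. Its 4 EV peaks were 10807, 4740, 2645 and 3800 bp wide and covered 57.6% of it together with a peak that reached in from outside. KD had a single peak of 1003 bp, inside the second of these, and covered 3.17%. In the list without a genotype 2 peaks of 573 and 1186 bp covered 5.56%. The EV peaks were wide but weak, with −log10 p from 4.16 to 7.52, and with equal peak numbers the excess of EV over KD was 11.8 percentage points in place of 54.4. LINC02370 on chromosome 12 had 32.1% in EV from peaks of 4967 and 2926 bp and none in either other list.

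Excess in KD was smaller and rarer. LINC02992 on chromosome 2 (113977669 to 113979984) had 19.3% in KD and no EV peak. Its KD peak, at 113979539 to 113980060, was 522 bp wide, with a fold of 5.098 and a −log10 p of 16.1. It also lay in LINC01191, which overlaps LINC02992, and it was the strongest of the 41 KD LINC peaks without an EV partner, the next having a −log10 p of 6.14. The window printed above shows the start it reaches. LINC00865 on chromosome 10 had 6.56% and LINC02421 on chromosome 12 1.75%, from KD peaks with a −log10 p of 3.93 and 4.36, and neither had an EV peak. LINC01124 (170712439 to 170714567), 1.83 kb from the transcription factor gene SP5, had 40.8% in EV and 50.3% in KD. Its EV peak, 3427 bp wide, has its midpoint in a protein-coding gene body and is therefore no LINC peak. With −log10 q of at least 2 the KD peak dropped out and the EV peak did not. LINC02538 on chromosome 6 had 5.56% in EV, 8.28% in KD and 2.33% without a genotype, at 1 shared place.

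The 41 KD LINC peaks without an EV partner were narrow, with a median width of 493 bp against 826.5 bp for the 112 shared ones. Their median −log10 p was 4.45, and 4.81 for the shared. After LINC02992 came LINC02511 on chromosome 4, with 6.14, and LINC02663 on chromosome 10, with 6.01. The list without a genotype overlapped 3 of the 41. Among the 275 EV LINC peaks without a KD partner the strongest were those in LINC00301 on chromosome 11, with a −log10 p of 14.8 and a fold of 6.86, LINC02201 on chromosome 5 with 12.5, and LINC01709 on chromosome 1 with 12.2. None of these 3 was found in the list without a genotype.

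**Figure D4:**
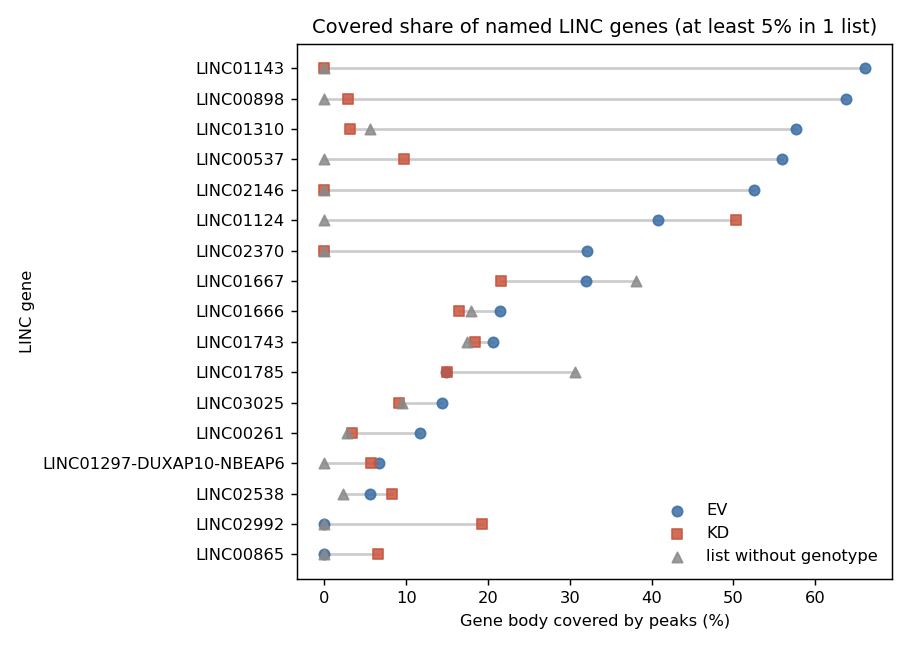
Share of the gene body covered by peaks (x axis, percent) for the 17 named LINC genes with at least 5% in 1 list. Circles are EV, squares KD and triangles the list without a genotype. LINC01143, LINC00898, LINC01310, LINC00537 and LINC02146 have EV values over 50% and KD values under 10%, while LINC01743 and LINC01666 lie close together in all 3 lists.

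The genes with the highest smallest share across the lists were LINC01667, LINC01743, LINC01666, LINC01785 and LINC03025. LINC01666 and LINC01667 lie on the short arm of chromosome 21, where near-identical copies of sequence are common. LINC01666 (8759079 to 8805958) had 21.4% in EV, 16.4% in KD and 17.9% in the list without a genotype. Its widest peak was 4554, 4770 and 5267 bp in these lists, at one place. LINC01667 (9781848 to 9821061) had 31.9%, 21.6% and 38.1%. In EV and in the list without a genotype most of that came from peaks of 28681 and 29616 bp that are centred outside the gene, and in KD from a LINC peak of 6828 bp. LINC01785 on chromosome 19 (22615557 to 22623971), next to the zinc finger gene ZNF492, had 14.8%, 14.96% and 30.7%. Its peaks in the list without a genotype and in EV did not overlap, and once peaks within 3 kb were merged its share was 25.2 percentage points higher in EV than in KD. LINC03025 on chromosome 9, 13.5 kb from FOXD4L6, had 14.3%, 9.07% and 9.51%. LINC01297-DUXAP10-NBEAP6 on chromosome 14, a readthrough gene next to POTEG, had 6 EV and 4 KD peaks over 6.61% and 5.67% of its body and none in the list without a genotype. With equal peak numbers its share was higher in KD (EV minus KD, -1.23 percentage points). Reads from copied sequence can match several places, and how they were filtered is not stated. Values for LINC01666, LINC01667, LINC03025, LINC00537 and LINC01297-DUXAP10-NBEAP6 are therefore uncertain.

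Of 19 listed genes with a described function and a LINC symbol, 2 carried a LINC peak in any list (10.5%, 1.30 to 33.1), where 17.1% of all LINC genes did. LINC00261, an endoderm gene 11.4 kb from FOXA2, had 11.7% in EV from 2 peaks, 3.37% in KD and 2.70% in the list without a genotype. Its KD peak overlapped the EV peak at 22568266 to 22568889 on chromosome 20, and the peak without a genotype overlapped the other EV peak at 22577078 to 22578574. Their −log10 p ran from 3.53 to 3.95, and with equal peak numbers EV minus KD was -3.37 percentage points. LINC-PINT, a p53-induced gene on chromosome 7, had a single EV peak of 775 bp over 0.334% of its body. The others on the list, among them LINC-ROR, LINC00473, LINC00511, LINC00673 and LINC01116, had no peak base in any list. LINC-ROR is known from pluripotent cells and LINC00473 from cAMP signalling.

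By place, 327 of the 384 EV LINC peaks (85.2%) lay neither within 1 Mb of a gene-free stretch of at least 2 Mb, nor within 2 Mb of the outermost genes of a chromosome, nor next to a ZNF gene. In KD this was 86.9% and in the list without a genotype 83.6%, while 90.5% of LINC genes lie in such places. Over all peaks the same class held 60.5%, 40.7% and 33.9%. Near gene-free stretches lay 30.2% of all EV peaks, and most peaks of KD and of the list without a genotype (51.8% and 58.0%). LINC peaks near gene-free stretches numbered 19, 7 and 21, or 4.95%, 4.58% and 10.4% of their lists' LINC peaks, while 1.99% of LINC genes lie there. In the list without a genotype LINC02987 alone held 8 of the 21. Near chromosome ends there were 21, 7 and 8 LINC peaks (5.47%, 4.58% and 3.98%), against 5.86%, 5.68% and 4.30% of all peaks. Next to ZNF genes there were 17, 6 and 4 (4.43%, 3.92% and 1.99%), against 3.51%, 1.78% and 3.84%. EV overlapped 7 of 7, 7 of 7 and 6 of 6 KD peaks in these classes, with intervals reaching down to 59.04%, 59.04% and 54.1%. In the remaining class it overlapped 92 of 133 (69.2%, 60.6 to 76.9). Over all KD peaks, at any place, the share was 87.7%. That lies inside the intervals of the small classes and above that of the remaining class. Shares over all peaks by place were not computed. Median distance to the nearest protein-coding gene was 149.02 kb for EV, 170.7 kb for KD and 248.7 kb for the list without a genotype. The midpoints of all LINC genes had 76.5 kb. At least 500 kb away were 15.1%, 20.9% and 24.4% of the LINC peaks, and 9.44% of LINC gene midpoints. The values for LINC genes and their midpoints count each gene once, whatever its length. Genes with a LINC peak were longer than the rest, so these comparisons are not like for like.

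Fewer LINC peaks in KD than in EV were found on 21 of the 22 chromosomes, and chromosome 10 had 5 in each. Over all peaks, KD had fewer on 22 of 22. EV had the most on chromosome 1, with 36, and KD had 7 there, a ratio of 0.194 against 0.510 over all peaks of that chromosome. On chromosome 12 EV had 30 and KD 2, a ratio of 0.0667 against 0.476. None of those 30 EV peaks was found in KD (interval 0 to 11.6%), while 18.6% of the chromosome's EV peaks in protein-coding genes and 33.6% of all its EV peaks were. They were weak, with a median −log10 p of 3.73 and none above 8.81, and 18 of the 30 lay beyond 120 Mb, among them those of LINC00508 and LINC02370. Beyond 120 Mb, KD overlapped 16.6% of all EV peaks, inside the interval of 0 to 18.5% for the LINC peaks there. Chromosome 12 was singled out after its values were seen. Without it, 30.8% of EV LINC peaks were found in KD and the KD/EV ratio of number was 0.427. On chromosomes 2 and 4 the ratios were 0.529 and 0.630, each above that over all peaks of the chromosome, which was 0.446 and 0.505.

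**Figure D5:**
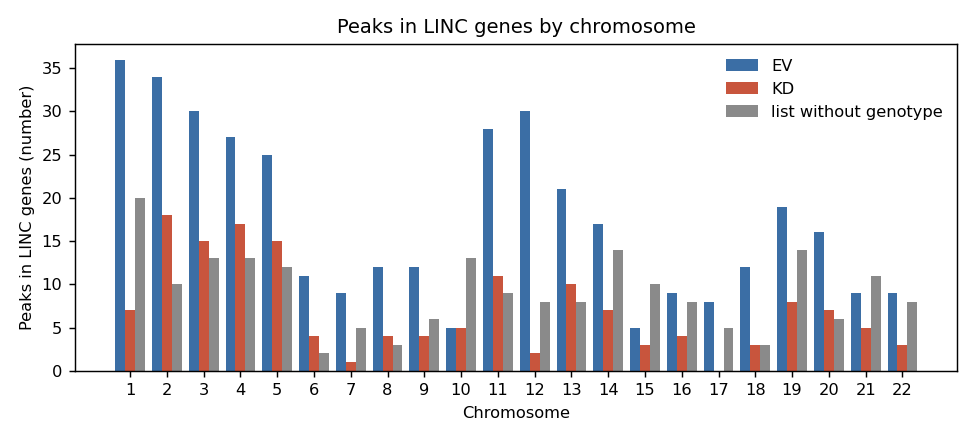
Number of LINC peaks (y axis) on each of chromosomes 1 to 22 (x axis) in EV, KD and the list without a genotype. The widest gaps between EV and KD are on chromosome 1, with 36 and 7, and on chromosome 12, with 30 and 2.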

How the data were processed

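The 3 deposited files are broad peak lists without headers. Reads were aligned with Bowtie2 and peaks called with MACS2 on GRCh38, per the submitters' processing notes. Versions, options, control libraries, filters and pooling are not stated. The fold enrichment (a ratio) and both −log10 values of a peak, for p and for q, were used as the authors deposited them, and no −log10 q is below 1.003. The EV and KD lists were matched to samples by the names they carry. The remaining list carries no genotype and went to no group. The lists hold no read counts, so depth is unknown.

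Midpoints, overlap (at least 1 bp) and covered bases were computed with pandas 2.3.3, numpy 2.4.6 and Python 3.11.15, and tested against bedtools 2.31.1 on simulated data. Intervals are Clopper-Pearson (scipy 1.17.1), and plots were made with matplotlib 3.10.9. Gene bodies and start windows came from RefSeq tables of GRCh38.p14. Coordinates count from 1.

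No test between conditions was made. Named genes were LINC genes with a LINC peak: the 6 with most covered bases in EV, the 6 with the highest fold in EV and in KD, and the 5 with most EV peaks. Of those of at least 2 kb, the 5 with the largest share in EV minus KD, in KD minus EV, and in the smallest of the 3 lists were added, with function list members. Others are named where counts needed them, after their values were seen. The members and lists were chosen with earlier results of these data known. Alternatives were stricter −log10 q (2) and fold (3), merging within 3 kb, equal peak numbers, other membership and overlap rules, and other shares of the gene body. Leaving out chromosome 12 was added after the data were seen.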

Additional observations from a re-analysis of the deposited data

Results flagged for a closer look

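LINC peaks on chromosome X lay outside the comparisons, which cover chromosomes 1 to 22. The EV list held 9 such peaks among its 1264 on chromosome X. KD held 3 of 504 and the list without a genotype 1 of 1065, and no list had any LINC peak on chromosome Y.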

How the results depend on the processing

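No paired analysis was possible because each group has 1 library. Depth is unknown, so nothing here separates a weaker mark from fewer reads. Of the recomputed counts, lengths, ratios and shares over all LINC genes, 94 stayed near the reported value and 33 moved. Near means within 1.5 times for counts, lengths and the ratio of length, and within the reported 95% interval for shares and the ratio of number.

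With −log10 q of at least 2, LINC peaks numbered 221 in EV, 92 in KD and 34 in the list without a genotype (39.7 kb), in 190, 86 and 32 genes. That list then had 3 genes at 10% of the body, and 35.3% of its LINC peaks were found in EV and 32.4% in KD. With fold enrichment of at least 3, EV had 234 LINC peaks and 33 genes at 10%, the KD/EV ratio of number was 0.585, and 56.2% of KD peaks and 10.6% of those without a genotype were found in EV. With equal numbers of strongest peaks, EV had 161 LINC peaks over 219 kb in 143 genes, 27 of them at 10%. The KD/EV ratio was 0.950 for number and 0.647 for length. EV peaks were then found in KD at 52.2% and in the list without a genotype at 11.2%, and KD peaks in EV at 57.5%. With reciprocal overlap of at least 50%, 19.8% of EV peaks were found in KD and 4.17% in the list without a genotype, and 49.7% of KD peaks and 8.46% of those without a genotype were found in EV. Genes at 5% of the body numbered 89, 32 and 20 in the 3 lists, and at 25% 19 in EV and 7 in KD. The −log10 q and fold settings keep fewer peaks, and the cause of these shifts was not tested. Shares over all peaks were not recomputed under these settings.

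The sign of EV minus KD in covered share, in percentage points, turned for 4 of the named genes. LINC00261 went to -3.37 with equal numbers. LINC01124 went to 40.8 with −log10 q of at least 2. LINC01785 went to 14.8 with that setting and to 25.2 with merged peaks. LINC01297-DUXAP10-NBEAP6 went to -0.278, -0.963 and -1.23 with stricter −log10 q, stricter fold and equal numbers.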
